A study of Homo sapiens with 6 samples.

Results

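Collagens are the structural proteins of the extracellular matrix. Each molecule is wound from chains whose repeated Gly-X-Y triplets form a triple helix, and the chains are modified and folded in the endoplasmic reticulum before secretion, cleavage and cross-linking. Fibrillar collagens form the banded fibrils of connective tissue, and fibril-associated collagens coat them. Network-forming type IV collagen is the scaffold of the basement membrane on which breast epithelium rests, and type VII collagen anchors that membrane to the stroma. The genes described here are the autosomal protein-coding genes of the GENCODE annotation of hg38 whose symbol is COL, a number, A and a number, with COL17A1 left out. There were 41 of them among 19103 autosomal protein-coding genes. Membership was set by name and not by any measured value, though the group was chosen with earlier results of these data known.

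Accessible chromatin was mapped by ATAC-seq, in which Tn5 transposase inserts adapters into open DNA, in MCF-10A, a non-tumorigenic human breast epithelial cell line. The groups were knock-in cells with PIK3CA E545K, knock-in cells with PIK3CA H1047R and parental cells with wild-type PIK3CA (WT), with 2 samples each and 6 in all. PIK3CA encodes the catalytic alpha subunit of phosphoinositide 3-kinase, and E545K lies in its helical domain and H1047R in its kinase domain. Both knock-in lines had been made earlier and were maintained without epidermal growth factor (EGF), while the parental cells had 20 ng/ml EGF in their maintenance medium. All lines received insulin, hydrocortisone and cholera toxin, and for the final 24 h every line was kept with 0.2 ng/ml EGF and 1% stripped serum. Genotype therefore goes together with the maintenance medium, and their parts in any difference cannot be told apart.

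One deposited peak list stood for each genotype, called on both of its samples together. The lists held 89416 peaks for E545K, 106747 for H1047R and 98910 for WT, with median widths of 539 bp in E545K, 466 bp in H1047R and 466 bp in WT. The read depth behind them is unknown. With 1 list per genotype no difference could be tested against the spread between samples, so every comparison given here is a description of these lists. Confidence intervals of shares are 95% Wilson intervals and cover counting error only. Of the markers chosen for the cell line, 6 of 7 basal breast epithelial genes and 6 of 6 general epithelial genes had a promoter peak in every list, against 3 of 10 fibroblast, 1 of 6 cartilage, 1 of 5 endothelial and 1 of 5 immune genes. Over all autosomal protein-coding genes 65.5% had one in every list. The basal gene without one was TP63, at its canonical start, and the KRT14 peak was small in every list. The fibroblast markers with one were FAP, TWIST1 and FN1, while PDGFRB, DCN, LUM, THY1 and PRRX1 had none in any list. PDGFRA had one in E545K and WT, and ACTA2 in E545K alone.

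The promoters on which the comparisons turn are shown as 300 bases of the RefSeq sequence (GRCh38.p14), from 250 bases before to 50 after the annotated start and read in the direction of transcription. COL4A1, COL4A4 and COL7A1 lie on the minus strand. Capitals mark matches, on either strand, to the AP-1 site TGANTCA, the GC box GGGCGG, the CCAAT box, the TATA box TATAAA, the TEAD site GGAATG or the RUNX site TGTGGT. The COL4A1 sequence (chr13:110307108-110307407) also holds the start of COL4A2, which is transcribed the other way. The COL4A4 sequence (chr2:227164156-227164455) lies beside the start of COL4A3, again in the opposite direction. The COL7A1 sequence is at chr3:48595280-48595579.
COL4A1 promoter: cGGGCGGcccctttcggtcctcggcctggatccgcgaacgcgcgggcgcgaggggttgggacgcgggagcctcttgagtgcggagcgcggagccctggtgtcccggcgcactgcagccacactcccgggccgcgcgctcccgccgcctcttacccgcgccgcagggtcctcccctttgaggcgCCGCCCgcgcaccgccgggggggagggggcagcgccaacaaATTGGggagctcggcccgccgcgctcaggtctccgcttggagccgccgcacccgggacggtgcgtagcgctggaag
COL4A4 promoter: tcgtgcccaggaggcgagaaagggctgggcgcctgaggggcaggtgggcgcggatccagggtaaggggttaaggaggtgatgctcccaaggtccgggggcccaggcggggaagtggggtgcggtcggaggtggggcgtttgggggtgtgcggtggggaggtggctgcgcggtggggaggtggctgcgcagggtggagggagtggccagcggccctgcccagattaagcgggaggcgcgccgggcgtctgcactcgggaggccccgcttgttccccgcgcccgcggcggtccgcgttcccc
COL7A1 promoter: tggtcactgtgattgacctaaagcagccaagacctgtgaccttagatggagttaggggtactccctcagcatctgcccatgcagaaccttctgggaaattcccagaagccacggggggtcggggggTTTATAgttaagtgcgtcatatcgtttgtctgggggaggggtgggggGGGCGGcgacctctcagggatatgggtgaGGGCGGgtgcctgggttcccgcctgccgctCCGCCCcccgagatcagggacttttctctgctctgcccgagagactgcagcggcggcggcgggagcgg

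The regions that appeared in some lists and not in others lay mostly in introns. For a selection of the strong ones the 201 bases centred on the peak summit are shown from hg38, on the plus strand, with the same capitals. Not shown are those in COL14A1 intron 9, COL6A5 intron 38, COL7A1 exon 104, COL27A1 intron 3 and the downstream flank of COL27A1. The first 3 carried a strong peak in WT and none in either knock-in: intron 3 of COL4A2 (chr13:110340955-110341155), intron 27 of COL28A1 (chr7:7385513-7385713) and intron 16 of COL15A1 (chr9:99030177-99030377). The next was strong in both knock-ins and absent from WT, and lies within the COL21A1 gene upstream of its canonical transcript (chr6:56387678-56387878). The next 2 were missing from 1 knock-in each: COL25A1 intron 3 (chr4:109171222-109171422) from E545K and COL25A1 intron 19 (chr4:108881364-108881564) from H1047R. The last 2 were called in 1 knock-in alone: COL27A1 intron 36 (chr9:114273416-114273616) in H1047R and COL5A1 intron 1 (chr9:134654266-134654466) in E545K.
COL4A2 intron 3: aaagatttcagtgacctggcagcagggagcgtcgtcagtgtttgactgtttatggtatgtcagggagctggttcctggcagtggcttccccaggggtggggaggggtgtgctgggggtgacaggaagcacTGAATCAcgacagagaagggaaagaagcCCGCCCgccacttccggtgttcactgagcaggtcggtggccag
COL28A1 intron 27: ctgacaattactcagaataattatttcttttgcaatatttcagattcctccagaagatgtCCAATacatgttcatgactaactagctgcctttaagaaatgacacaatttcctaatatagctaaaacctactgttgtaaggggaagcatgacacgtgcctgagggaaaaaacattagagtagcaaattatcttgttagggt
COL15A1 intron 16: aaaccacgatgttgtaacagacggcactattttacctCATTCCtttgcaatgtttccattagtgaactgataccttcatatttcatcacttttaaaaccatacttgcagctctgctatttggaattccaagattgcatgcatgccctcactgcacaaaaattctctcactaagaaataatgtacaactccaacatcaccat
COL21A1 upstream: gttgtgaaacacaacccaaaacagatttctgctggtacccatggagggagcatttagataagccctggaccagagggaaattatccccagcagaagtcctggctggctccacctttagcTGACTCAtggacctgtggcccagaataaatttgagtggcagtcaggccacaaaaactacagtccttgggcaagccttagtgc
COL25A1 intron 3: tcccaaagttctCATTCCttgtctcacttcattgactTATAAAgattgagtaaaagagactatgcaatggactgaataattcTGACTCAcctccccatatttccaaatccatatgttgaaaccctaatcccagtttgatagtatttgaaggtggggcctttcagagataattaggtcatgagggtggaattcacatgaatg
COL25A1 intron 19: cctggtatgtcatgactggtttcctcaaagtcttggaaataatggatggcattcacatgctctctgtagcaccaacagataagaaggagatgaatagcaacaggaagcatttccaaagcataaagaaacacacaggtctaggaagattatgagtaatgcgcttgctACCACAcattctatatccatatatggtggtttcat
COL27A1 intron 36: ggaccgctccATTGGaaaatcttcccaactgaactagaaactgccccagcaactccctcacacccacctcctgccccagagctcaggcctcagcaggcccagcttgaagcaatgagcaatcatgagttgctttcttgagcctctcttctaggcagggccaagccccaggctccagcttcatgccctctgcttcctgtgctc
COL5A1 intron 1: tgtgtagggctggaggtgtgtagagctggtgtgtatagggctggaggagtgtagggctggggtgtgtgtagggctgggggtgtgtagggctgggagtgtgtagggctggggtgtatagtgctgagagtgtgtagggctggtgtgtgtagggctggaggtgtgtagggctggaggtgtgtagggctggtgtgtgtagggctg

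Collagen promoters were closed more often than those of genes in general, and which ones were open hardly differed between genotypes. A promoter was called open where a peak overlapped the 1 kb on either side of the canonical start. Of the 41 collagens, 18 were open in every list (43.9%, interval 29.9 to 59.0%), against 65.5% of all 19103 genes. Another 20 were open in none (48.8%, interval 34.3 to 63.5%), against 30.0% of all genes. The remaining 3 were open in some lists (7.32%, interval 2.52 to 19.4%), against 4.55% of all genes. The number open was 21 in E545K, 19 in H1047R and 18 in WT. In bulk nuclei, fewer cells with a site open and less accessibility in each cell cannot be told apart.

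Among the fibrillar collagens, 4 of 11 promoters were open in every list and 7 in none. COL1A1 (chr17:50184101-50201632) and COL1A2 (chr7:94394895-94431227) encode the chains of type I collagen, the main collagen of bone, skin and tendon. The largest COL1A1 promoter peak had an area of 5279 in E545K, 5546 in H1047R and 6016 in WT. It lay within the gene and did not reach the start, with its summit 1302 bp away in every list. Areas are given as the authors' value for a peak, which the peak caller obtained as the area beneath its curve across the peak, and are not scaled between lists. The COL1A2 peak was small throughout, with areas of 284 in E545K, 284 in H1047R and 280 in WT. At the start of COL3A1 (chr2:188974373-189012746), the fibrillar chain that accompanies type I collagen in distensible tissue, no list had a peak. Its gene body held 1 small peak of area 307 in E545K and 1 of area 233 in H1047R, in intron 34, and none in WT. COL5A3 was open with areas of 722 in E545K, 998 in H1047R and 851 in WT, and COL27A1 with 1353 in E545K, 1313 in H1047R and 1388 in WT. Promoters of COL2A1, COL11A1 and COL11A2, which are cartilage collagens, and those of COL5A1, COL5A2, COL3A1 and COL24A1 were closed in every list.

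Of the 10 fibril-associated collagens, 3 were open in every list, 2 in E545K alone and 5 in none. The promoter peak of COL12A1 (chr6:75084326-75206267), which binds the surface of type I fibrils, had areas of 3528 in E545K, 3979 in H1047R and 4120 in WT. COL22A1 had 1775 in E545K, 1909 in H1047R and 1723 in WT. COL14A1 had 299 in E545K, 377 in H1047R and 419 in WT. COL9A3 (chr20:62816244-62841159), a chain of the cartilage collagen IX, counted as open in E545K with an area of 1206. That wide E545K peak, from 62817087 to 62820134, reached into the window around the canonical start at 62817050. The H1047R and WT peaks in the same intron, of area 891 in H1047R and 594 in WT, began at 62818197 in H1047R and 62818160 in WT and lay outside it. COL20A1 (chr20:63293186-63334851) counted as open in E545K through a weak peak of area 246 whose summit lay 1027 bp from the start. COL9A1 had no peak in its gene body or the 5 kb on either side in any list.

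The basement membrane and network group had the highest share of open promoters among the groups with more than 3 members, 5 of 7. The interval of that share, 35.9 to 91.8%, overlapped those of the other groups, and 4 of these 5 genes share their promoter peak with a neighbour. COL4A1 (chr13:110148963-110307157) and COL4A2 (chr13:110305812-110513209) encode the alpha chains of the common basement membrane collagen IV and start head to head at 110307157 and 110307284. A single peak over both starts had an area of 4754 in E545K, 4395 in H1047R and 5288 in WT. COL4A3 and COL4A4, the chains of specialised basement membranes such as that of the kidney glomerulus, share a peak in the same way. Its area was 1216 in E545K, 2194 in H1047R and 1290 in WT. COL8A1 had 795 in E545K, 677 in H1047R and 1231 in WT, and COL8A2 and the growth plate collagen COL10A1 were closed. The summit of that COL8A1 peak lay 1384 bp from the start in E545K, 1276 bp in H1047R and 1314 bp in WT. A smaller COL8A1 peak at the start had areas of 235 in E545K, 404 in H1047R and 423 in WT. COL10A1 had no peak anywhere in its window in any list.

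COL7A1 (chr3:48564073-48595329), the collagen of anchoring fibrils, had the largest promoter area of any collagen in WT. In WT 1 peak of 5823 bp and area 15589 ran from 48594648 to 48600470. In E545K the same stretch held 1 peak of area 4351 at the start and another of area 8311 upstream of it. In H1047R the stretch likewise held a peak of area 3600 at the start and one of area 8437 upstream. The WT value thus belongs to a fused peak, and areas at the start itself cannot be compared between WT and the knock-ins. COL6A1 and COL6A2, adjacent genes for chains of the microfibrillar collagen VI, were open in every list, with areas of 2164 and 607 in E545K, 2364 and 409 in H1047R, and 2448 and 693 in WT. COL6A3, COL6A5, COL6A6 and COL28A1 were closed. COL6A3 encodes the chain that joins those of COL6A1 and COL6A2 in the common collagen VI molecule.

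Of the transmembrane collagens, COL13A1 was open in every list with areas of 670 in E545K, 1164 in H1047R and 1115 in WT, and COL25A1 was closed. COL23A1 (chr5:178237476-178590393) had a promoter peak of area 561 in E545K and 309 in H1047R and none in WT. COL18A1, whose C-terminal fragment is endostatin, was open in every list through a peak at its start, of area 874 in E545K, 638 in H1047R and 598 in WT. A larger upstream peak reached into the window in both knock-ins but not in WT, with areas of 1113 in E545K, 2395 in H1047R and 1394 in WT. COL15A1, its relative, was closed. COL26A1 was open with areas of 328 in E545K, 430 in H1047R and 376 in WT.

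**Figure D1:**
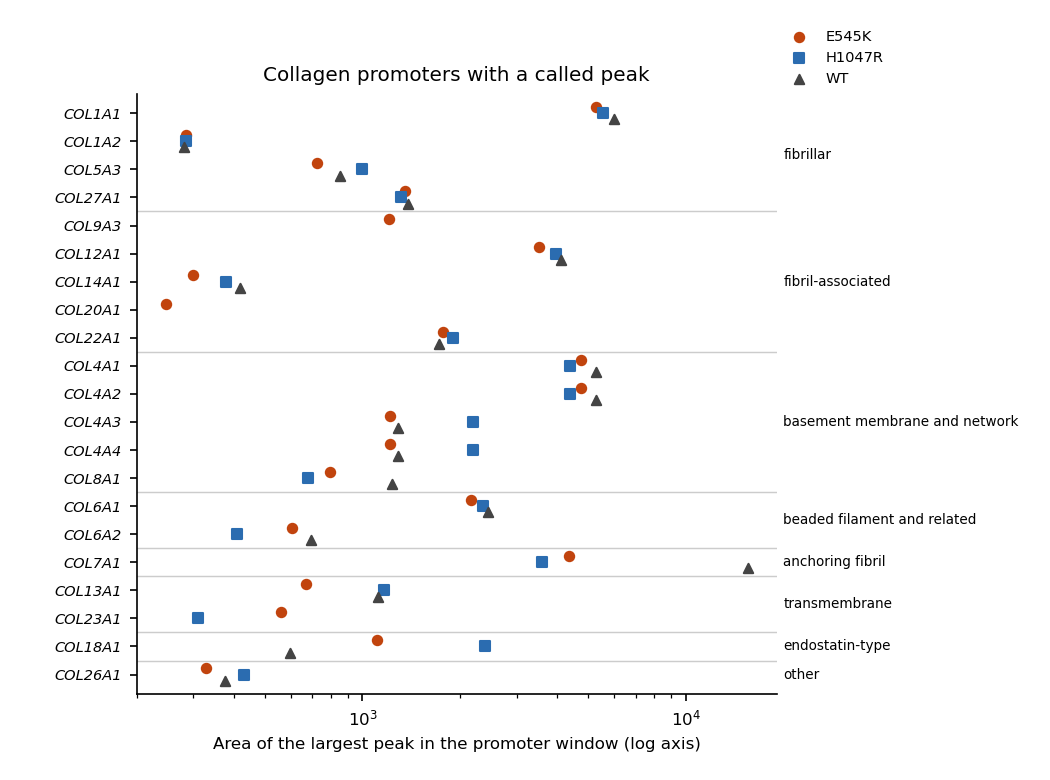
Area of the largest peak that overlaps the 1 kb on either side of the canonical start, on a log axis. The 21 collagens with a promoter peak in at least 1 list are shown, ordered by role. At COL1A1, COL8A1 and COL26A1 the summit of that peak lay beyond 1 kb from the start in every list. Points are the single pooled lists of E545K, H1047R and WT. COL9A3 and COL20A1 have an E545K point alone, the WT point of COL7A1 at 15589 is a fused peak, and the COL18A1 points are an upstream peak in E545K and H1047R and a peak at the start in WT.

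The plot of promoter areas shows that levels differed far more between collagens than between genotypes. Promoter peaks of WT ranged in area from 280 for COL1A2 to 6016 for COL1A1 when the fused COL7A1 peak is set aside. Within most genes the 3 points lie close together.

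By their medians, the closed collagen promoters were richer in GC and CpG than closed promoters in general. RefSeq promoter sequences were at hand for 29 of the 41 genes. In 16 collagens with a closed promoter the median GC content was 66.5% and the ratio of observed to expected CpG was 0.638. Over 3960 closed promoters of all genes those medians were 54.0% and 0.318. The GC content of the 16 ran from 38.0 to 82.0%, and COL9A1, COL10A1, COL19A1 and COL28A1 lay below 54.0%. In 12 collagens open in every list the medians were 67.2% and 0.778, against 66.7% and 0.859 for 9678 open promoters of all genes. The GC box stood in 19 of 29 collagen promoters (65.5%), against 63.0% of 14236 promoters of all genes. The TATA box stood in 5 (17.2%), against 9.41% of all, and the CCAAT box in 7 (24.1%), against 36.5% of all. The AP-1 and RUNX letters stood in none of the 29, against 5.28% and 10.3% of all. The COL7A1 promoter shown above held 3 GC boxes and 1 TATA box, and the COL4A1 promoter 2 GC boxes and 1 CCAAT box.

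Genes that act on collagen chains were open about as often as genes in general. Of 42 such genes, 30 were open in every list (71.4%, interval 56.4 to 82.8%), against 65.5% of all genes, with 5 open in some and 7 in none. For chain modification and folding it was 16 of 17, among them the prolyl hydroxylase subunit P4HA1 with areas of 4979 in E545K, 5275 in H1047R and 6077 in WT. SERPINH1, a collagen chaperone, had 5124 in E545K, 5685 in H1047R and 6772 in WT. For propeptide cleavage and cross-linking 7 of 12 were open in every list and 4 in some (33.3%, interval 13.8 to 60.9%, against 4.55% of all genes). Of these 4, ADAMTS14, a procollagen N-proteinase, had areas of 1106 in E545K and 1540 in H1047R and no WT peak. PCOLCE2, an enhancer of C-propeptide cleavage, had 293 in E545K and 668 in H1047R and no WT peak. ADAMTS2 with 530 and the lysyl oxidase relative LOXL3 with 354 were open in E545K alone. Of the proteases MMP1 and MMP14 were open and MMP2, MMP8, MMP9 and MMP13 closed. Of the receptors 5 of 7 were open in every list, while the integrin subunit ITGA10 had a peak of area 219 in WT alone and DDR2 had none.

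Within the gene bodies and 5 kb of flank, the collagens held 263 peaks in E545K, 280 in H1047R and 288 in WT. Peaks in introns made up 76.0% in E545K, 78.6% in H1047R and 77.4% in WT. A collagen's start was the nearest for 68.1% of the peaks in E545K, 70.7% in H1047R and 71.5% in WT, and for the rest it was another gene's. A peak was called strong when its area was in the upper 50% of its list, which began at an area of 624 in E545K, 639 in H1047R and 651 in WT. By that rule 111 collagen peaks were strong in E545K (42.2%), 130 in H1047R (46.4%) and 115 in WT (39.9%).

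Most collagen peaks overlapped a peak of the other lists by at least 1 bp. In E545K, 40 of 263 had no partner in WT (15.2%, interval 11.4 to 20.0%), against 12.6% of all E545K peaks. In WT, 62 of 288 had none in E545K (21.5%, interval 17.2 to 26.6%), against 20.3% of all WT peaks. In H1047R, 42 of 280 had none in WT (15.0%, interval 11.3 to 19.7%), against 17.9% of all H1047R peaks. In WT, 51 of 288 had none in H1047R (17.7%, interval 13.7 to 22.5%), against 11.0% of all WT peaks. Between the knock-ins, 38 E545K peaks had none in H1047R (14.4%, interval 10.7 to 19.2%), against 9.14%, and 52 H1047R peaks had none in E545K (18.6%, interval 14.5 to 23.5%), against 23.6%. The list's value lay outside the interval of the collagen share in 3 of these 6 comparisons. E545K and WT collagen peaks more often lacked a partner in H1047R, and H1047R collagen peaks less often lacked one in E545K. With summits of −log10 p of at least 3 alone, the E545K share without a partner in H1047R was 5.67%, against 5.95% of all, and the H1047R share without one in E545K was 22.0% (interval 17.2 to 27.7%), against 24.8%, so those differences did not hold. The WT share without a partner in H1047R was then 19.4% (interval 14.9 to 24.7%), against 11.4%. Peaks in 1 gene are not independent of each other, so these intervals are too narrow.

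Pooled into regions, the collagens held 347 of 120615. A region called in every list was as frequent here as elsewhere, 208 regions or 59.9%, against 61.2% of all and 63.0% in windows of coding genes. Regions of WT alone numbered 37, or 10.7% (interval 7.84 to 14.4%), against 6.73% of all regions and 6.11% of those in windows of coding genes. COL4A1 and COL4A2 supplied 10 of these 37, and without both genes 27 of 316 were of WT alone (8.54%, interval 5.94 to 12.1%). Regions of E545K alone numbered 26, or 7.49% (interval 5.16 to 10.8%), against 4.52%. COL23A1 supplied 8 of these 26 and COL18A1 6, and the share without both genes was not computed. Regions of H1047R alone numbered 27, or 7.78% (interval 5.40 to 11.1%), against 11.0%. Regions of both knock-ins and not WT numbered 13, or 3.75%, against 4.62%. Regions of E545K and WT numbered 11, or 3.17%, against 2.13%, and those of H1047R and WT 25, or 7.20%, against 9.76%. In windows of coding genes alone, regions of E545K alone made up 4.64%, those of H1047R alone 10.4%, those of both knock-ins 4.30%, those of E545K and WT 2.08%, and those of H1047R and WT 9.48%.

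**Figure D2:**
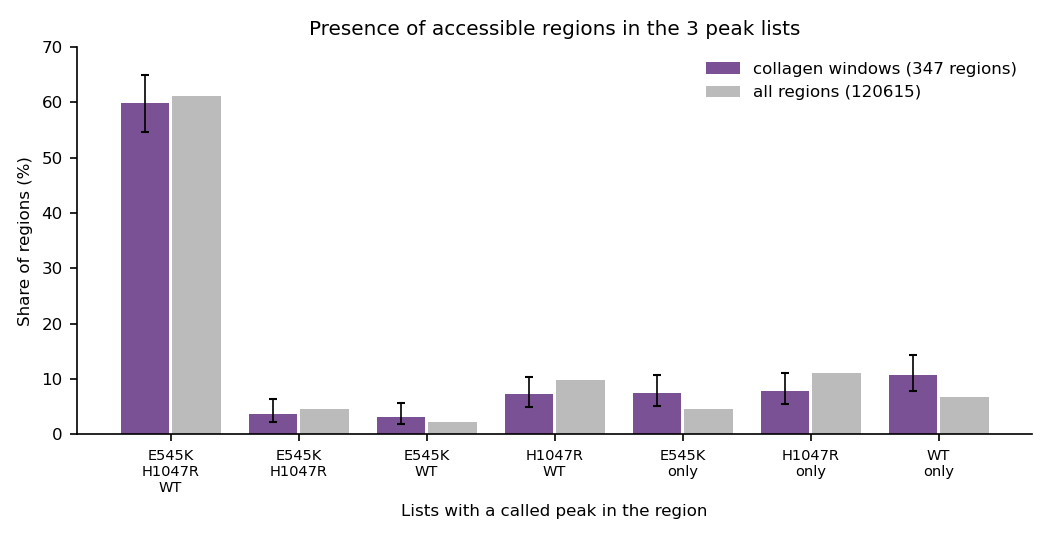
Share of regions, in percent, by the lists in which a peak was called, for the 347 collagen regions and for all 120615 regions, with 95% Wilson intervals on the collagen shares. In percentage points the largest excess over all regions is in regions of WT alone, 10.7% against 6.73%. Without COL4A1 and COL4A2 that collagen share was 8.54% (interval 5.94 to 12.1%).

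The plot of region patterns shows that among regions of a single list those of WT were the most frequent in collagens, while those of H1047R were the most frequent over all regions. The share called in WT alone lay above that of all regions, as did the share called in E545K alone, and the share called in H1047R alone lay below it. Both excesses leaned on few genes. Without COL4A1 and COL4A2 the counts were 26 for E545K alone, 24 for H1047R alone and 27 for WT alone. The interval of the WT share, 5.94 to 12.1%, then held the 6.73% of all regions. COL23A1 and COL18A1 held 8 and 6 of the regions of E545K alone.

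Strong peaks without a partner were few. In E545K, 2 of 111 lacked one in WT (1.80%, against 2.55% of all strong E545K peaks), and in WT 5 of 115 lacked one in E545K (4.35%, against 2.13%). In H1047R, 5 of 130 lacked one in WT (3.85%, against 2.95%), and in WT 4 of 115 lacked one in H1047R (3.48%, against 1.40%). Between the knock-ins, 3 of 111 in E545K lacked one in H1047R (2.70%, against 1.60%), and 3 of 130 in H1047R lacked one in E545K (2.31%, against 2.87%). None of these sites lay at a collagen promoter.

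The strong sites seen in WT alone were those of COL4A2, COL28A1 and COL15A1. The COL4A2 peak in intron 3 (chr13:110340797-110341621) had an area of 1041, with a summit −log10 p of 3.95, and its summit lay 33771 bp from the gene's start. The COL28A1 peak in intron 27 (chr7:7385358-7385782) had an area of 698, and the COL15A1 peak in intron 16 (chr9:99030037-99030531) an area of 773. The COL4A2 summit sequence above holds 1 AP-1 match and 1 GC box. COL6A5, a chain of the collagen VI family, had no peak in E545K in intron 38 (chr3:130469936-130470516), against areas of 425 in H1047R and 988 in WT.

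COL25A1 (chr4:108808725-109302752), a transmembrane collagen found in neurons and muscle, had a site missing from each knock-in. In intron 3 (chr4:109171049-109171489) there was no peak in E545K, against areas of 807 in H1047R and 1015 in WT. In intron 19 (chr4:108881193-108881638) the area was 795 in E545K and 725 in WT, with no peak in H1047R. Its summit sequence in intron 3 holds 1 AP-1, 1 TATA and 1 TEAD match, and the one in intron 19 holds 1 RUNX match.

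Sites called in the knock-ins and not in WT were led by COL21A1, COL14A1 and COL27A1. The COL21A1 site (chr6:56387533-56388395) had areas of 700 in E545K and 931 in H1047R. It lies inside the annotated gene (chr6:56056590-56394094) but outside its canonical transcript, and its E545K summit was 140642 bp from the canonical start. Intron 9 of COL14A1 (chr8:120204219-120205006) had areas of 310 in E545K and 1296 in H1047R. In COL27A1 (chr9:114155537-114312511), a fibrillar collagen of cartilage, H1047R held 6 regions of its own among 17. Of these, intron 36 (chr9:114273206-114273843) had an area of 907 and the downstream flank (chr9:114314954-114315561) an area of 730. At least 6 regions of H1047R alone were found at 119 of 19103 genes (0.623%). In intron 3 of COL27A1 both knock-ins had a peak, of area 285 in E545K and 650 in H1047R.

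In E545K the strong site without a partner in either other list was intron 1 of COL5A1 (chr9:134653785-134655218), with an area of 988. It was 1434 bp wide, and its summit −log10 p of 2.57 lay below the list's median of 3.97. The 201 bases at its summit hold 10 copies of TAGGGCTGG and are a tandem repeat. In COL7A1 exon 104 E545K had an area of 630, H1047R no peak and WT an area of 292.

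Regions of a single list were unevenly spread over the collagens. COL4A1 held 10 peaks in WT, against 2 in E545K and 3 in H1047R, and 7 of its 10 regions were of WT alone. At least 7 regions of WT alone were found at 24 of 19103 genes (0.126%). Of the 7, 6 lay in intron 1, between 19986 and 56778 bp from the start, and 1 in intron 49. Their areas ran from 213 to 511, all below the strong limit, and their summit −log10 p from 2.67 to 3.72. In the 1 Mb on either side of COL4A1, 11.1% of 144 regions were of WT alone, and around COL4A2 17.5% of 120, against 6.73% of all regions. Each neighbourhood leaves out the gene's own window alone, so these 2 adjacent genes count in each other's surroundings. The 21 regions of WT alone around COL4A2 include the 7 of COL4A1. The 16 around COL4A1 include the 3 of COL4A2. COL13A1 held 4 regions of WT alone among 16, a number reached at 156 genes (0.817%).

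COL23A1 held 8 regions of E545K alone among 32, a number reached at 29 of 19103 genes (0.152%). Their areas ran from 265 to 438. COL18A1 held 6 regions of E545K alone among 18, a number reached at 76 genes (0.398%), all of them at the 3′ end of the gene between intron 28 and exon 42, with areas from 202 to 340. Regions of E545K alone were also frequent around COL23A1, at 23.8% of 189 regions within 1 Mb, against 4.52% of all. Around COL18A1 they were 10 of 140 (7.14%), and those 10 include the 1 of COL6A1 and the 2 of COL6A2. Over all collagens the 26 peaks of E545K alone had a median width of 864 bp, a median summit −log10 p of 2.23 and a median GC content of 62.4%. The 5450 peaks of E545K alone in the whole list had 503 bp, 2.6 and 51.7%. The 27 of H1047R alone had 291 bp, 3.04 and 45.8%, and the 37 of WT alone 338 bp, 3.09 and 51.6%. The collagen peaks of E545K alone were thus wide, low and GC-rich. The part of peak width and GC content in the E545K results was not tested.

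**Figure D3:**
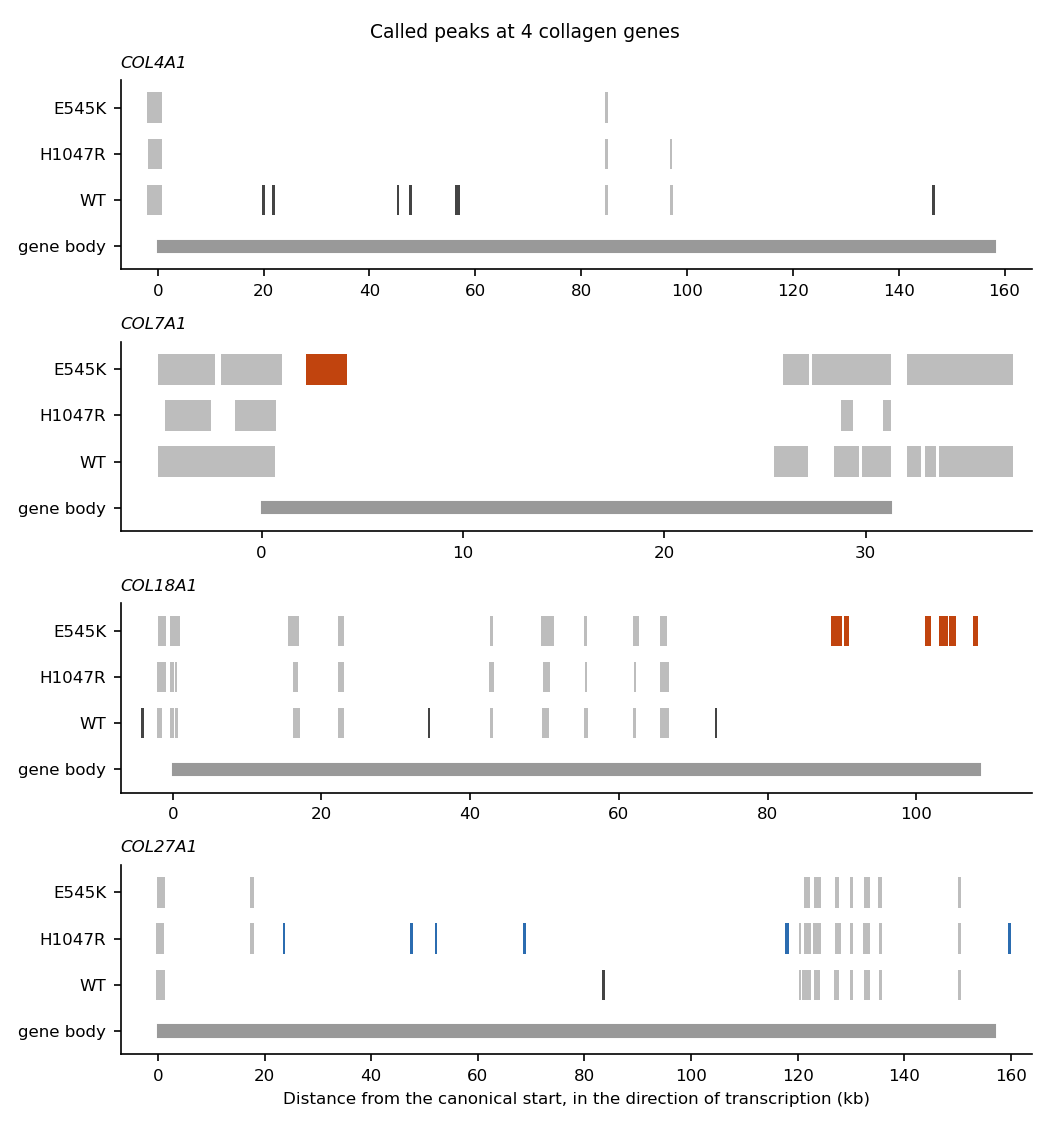
Called peaks along COL4A1, COL7A1, COL18A1 and COL27A1 in E545K, H1047R and WT, by distance from the canonical start in kb in the direction of transcription. Grey peaks overlap a peak of another list, and orange, blue and black ones are of E545K, H1047R or WT alone. COL4A1 has 7 WT peaks of its own, COL18A1 6 E545K peaks at its 3′ end and COL27A1 6 H1047R peaks.

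The plot of peaks along these 4 genes shows where the single-list regions fell. In COL4A1 small WT peaks, none of them strong, were scattered over a stretch of intron 1 where neither knock-in had a peak. In COL7A1 the E545K peaks at the 3′ end were wider and more continuous than those of either other list, and H1047R had the fewest.

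The part of each gene body covered by peaks was small for most collagens. The median over the 41 genes was 1.88% in E545K, 2.20% in H1047R and 1.99% in WT, against 3.32% in E545K, 3.77% in H1047R and 3.46% in WT over all genes. Coverage was at least 2 times higher in E545K than in WT at 7 of 37 collagens with peaks in both lists (18.9%, interval 9.48 to 34.2%), against 3.95% of all genes. These were COL6A1, COL6A2, COL6A3, COL9A3, COL11A2, COL18A1 and COL20A1. COL6A1 (chr21:45981770-46005050) was covered over 22.2% in E545K, 5.74% in H1047R and 8.47% in WT. COL6A2 (chr21:46098112-46132848) was covered over 21.4% in E545K, 5.36% in H1047R and 6.24% in WT. COL9A3 was covered over 34.5% in E545K, 18.1% in H1047R and 12.5% in WT. Its coverage was the highest of any collagen in E545K and in H1047R. COL18A1 was covered over 12.2% in E545K, 4.78% in H1047R and 5.67% in WT, and COL20A1 over 7.31% in E545K, 2.56% in H1047R and 1.99% in WT.

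In COL6A1 and COL6A2 the E545K peaks were wider than those of the other lists, with areas near theirs. In COL6A2 the E545K peak in intron 19 was 3955 bp wide with an area of 1937, against 841 bp and 1633 in H1047R and 894 bp and 1644 in WT. In COL6A1 the E545K promoter peak was 2662 bp wide with an area of 2164, against 1521 bp and 2364 in H1047R and 1915 bp and 2448 in WT. COL6A1, COL6A2 and COL18A1 lie near each other on chromosome 21, and COL9A3 and COL20A1 on chromosome 20, so the 7 genes are not independent. Within 1 Mb, 14.2% of regions around COL9A3, 15.5% around COL20A1, 10.6% around COL6A1 and 8.26% around COL6A2 were of E545K alone, against 4.52% of all regions. The share was 7.14% around COL18A1, 4.71% around COL6A3 and 3.65% around COL11A2. Each neighbourhood leaves out the gene's own window alone and so holds other collagens nearby. The 13 regions of E545K alone around COL6A1 and the 9 around COL6A2 each include the 6 of COL18A1. Those around COL6A1 also include the 2 of COL6A2, and those around COL6A2 the 1 of COL6A1. Likewise COL9A3 and COL20A1 each lie in the other's neighbourhood.

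In the other direction 1 gene, COL4A1, was covered at least 2 times less in E545K than in WT (2.70%, against 2.59% of all genes), with 0.752% in E545K, 0.963% in H1047R and 2.49% in WT. In H1047R 3 of 36 collagens were covered at least 2 times less than in WT (8.33%, interval 2.87 to 21.8%), against 1.70% of all genes. These were COL4A1, COL7A1, with 26.3% in E545K, 5.55% in H1047R and 16.3% in WT, and COL26A1, with 0.713% in E545K, 0.567% in H1047R and 1.14% in WT. COL6A3 was covered at least 2 times more in H1047R than in WT (2.78%, against 3.01% of all genes), with 0.859% in E545K, 0.895% in H1047R and 0.361% in WT. Between the knock-ins 6 of 37 were covered at least 2 times more in E545K (16.2%, interval 7.65 to 31.1%, against 3.54% of all genes) and none less (0 of 37, against 3.91%). The other highly covered collagens differed little. COL1A1 was covered over 14.2% in E545K, 16.3% in H1047R and 17.1% in WT, COL9A2 (chr1:40300489-40317813) over 13.1% in E545K, 11.9% in H1047R and 10.3% in WT, COL16A1 (chr1:31652263-31704319) over 12.2% in E545K, 10.9% in H1047R and 10.8% in WT, and COL2A1 (chr12:47972967-48004554) over 6.82% in E545K, 7.10% in H1047R and 8.57% in WT.

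**Figure D4:**
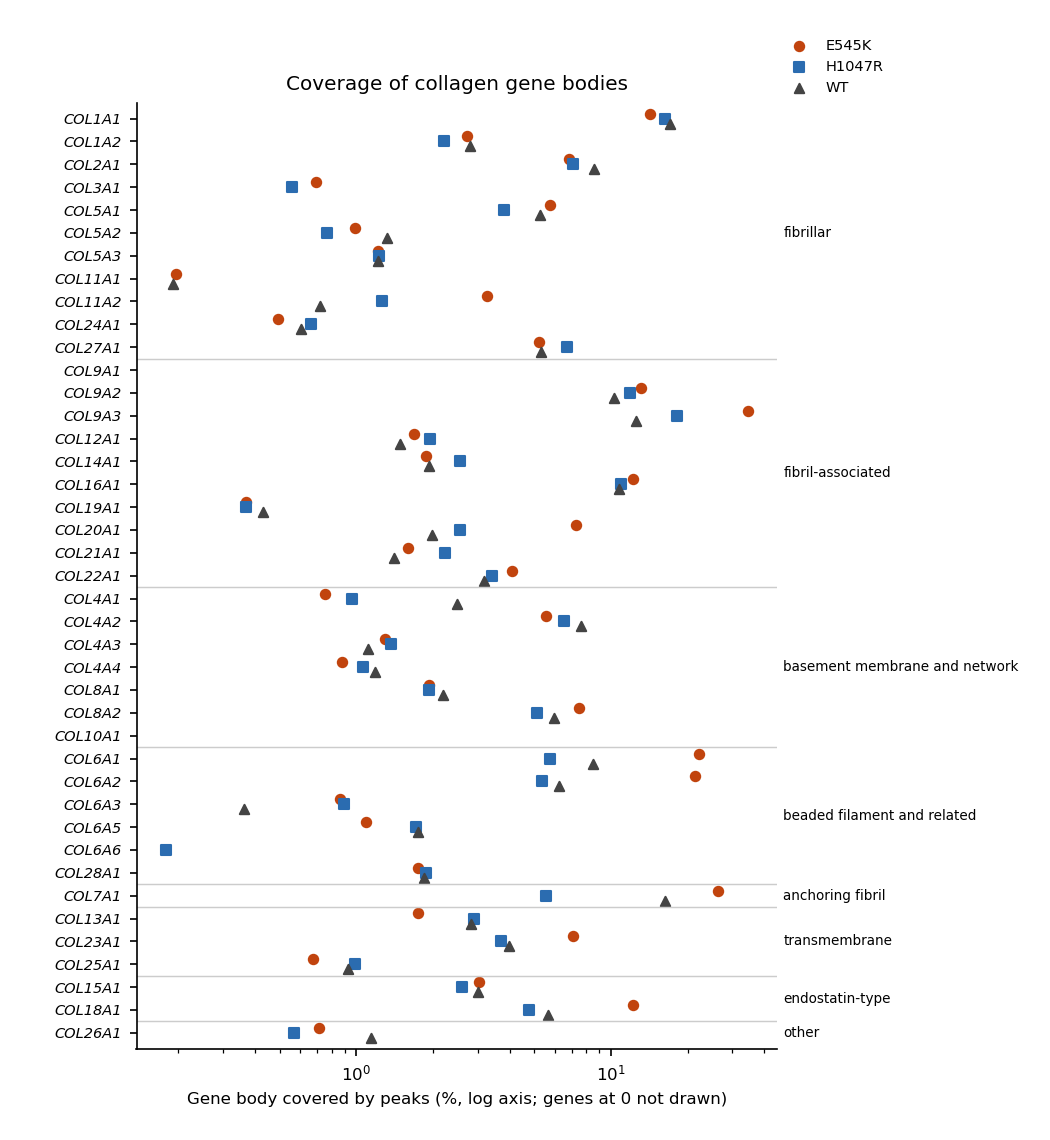
Percent of the gene body covered by peaks, on a log axis, for each collagen in E545K, H1047R and WT, ordered by role, with genes at 0 not drawn. E545K lies to the right of the other points at COL6A1, COL6A2, COL9A3, COL18A1 and COL20A1, and WT at COL4A1.

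The plot of coverage holds collagens with closed and with open promoters, in order of role and without marking which were closed. COL2A1, COL9A2 and COL16A1 were closed at their canonical starts in every list, and their bodies were nevertheless covered over 6.82% or more in each. In COL16A1 a peak in intron 49 had areas of 3122 in E545K, 3332 in H1047R and 3862 in WT. In COL2A1 a peak in intron 1 had areas of 2010 in E545K, 2401 in H1047R and 3025 in WT.

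Regions holding exactly 1 peak of every list were compared by their percentile rank by area, computed over the same 69662 regions in each list. There were 193 such regions in collagens. They ranked higher in E545K than in WT at 94 (48.7%, interval 41.7 to 55.7%), against 47.7% of all. They ranked higher in H1047R than in WT at 79 (40.9%, interval 34.2 to 48.0%), against 48.0% of all, and the median shift was −1.41 points, against −0.244. Ranked by summit −log10 p in place of area, the share was 45.6% (interval 38.7 to 52.6%), against 49.0% of all. E545K ranked higher than H1047R at 112 (58.0%, interval 51.0 to 64.8%), against 49.7% of all. Ranked by summit, that share was 49.2% (interval 42.3 to 56.2%), against 50.1% of all, so neither difference held, while for E545K against WT it was 40.9% (interval 34.2 to 48.0%), against 49.0%. Shifts of at least 10 points were about as common as elsewhere. In E545K against WT, 37 collagen regions ranked that much higher and 33 that much lower, against 17.1% and 17.7% of all. In H1047R against WT, 35 ranked that much higher and 39 lower, against 17.6% and 18.3% of all. Both comparisons share the WT list.

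The sum of peak areas over COL4A2 was 24457 in E545K, 30153 in H1047R and 35480 in WT. Its largest peak, in intron 3 (chr13:110346181-110348543), had areas of 9038 in E545K, 9248 in H1047R and 10936 in WT, and percentile ranks of 99.4 in E545K, 99.4 in H1047R and 99.7 in WT. All 12 shared regions of COL4A2 ranked lower in E545K than in WT, by a median of −8.97 points, and 10 of 12 ranked lower in H1047R, by a median of −3.96. Neighbouring regions within 1 Mb had medians of −0.557 in E545K and −2.25 in H1047R. The widest difference was in intron 18 (chr13:110447967-110448794), where the area was 256 in E545K, 505 in H1047R and 942 in WT and the rank was 7.86 in E545K, 23.1 in H1047R and 53.7 in WT. In intron 4 (chr13:110382127-110382591) the area was 343 in E545K, 822 in H1047R and 839 in WT. By contrast the region over the shared COL4A1 and COL4A2 starts moved by −0.198 points in E545K and −2.51 in H1047R.

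COL22A1 (chr8:138588235-138914041), a collagen of tissue junctions, was higher in E545K. Its sum was 20767 in E545K, 18712 in H1047R and 15318 in WT, and 16 of 18 shared regions ranked higher in E545K than in WT, by a median of 10.2 points. Its neighbours within 1 Mb also ranked higher, by a median of 7.96, and 23.8% of the regions there were of E545K alone. In intron 5 (chr8:138830530-138832022) the area was 6308 in E545K, 4627 in H1047R and 2920 in WT. In H1047R 8 of 18 ranked higher than in WT, with a median of −0.652.

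COL5A1 (chr9:134641803-134844843), a chain of the collagen V that starts type I fibrils, ranked lower than in WT at 11 of 13 shared regions in E545K and at 11 of 13 in H1047R. The median was −4.29 in E545K and −6.76 in H1047R, against −0.240 in E545K and −0.741 in H1047R for its neighbours. Its sum was 16421 in E545K, 15463 in H1047R and 20379 in WT. Its peak in intron 1 nearest to the closed start had areas of 2930 in E545K, 3448 in H1047R and 3533 in WT. COL8A1 ranked lower in H1047R than in WT at 10 of 11 regions, by a median of −6.44, and in E545K the median was −3.41. COL23A1 summed to 32080 in E545K, 28103 in H1047R and 24630 in WT, and 11 of its 17 shared regions ranked higher in E545K than in WT, by a median of 6.05. COL27A1 summed to 10448 in E545K, 19726 in H1047R and 14750 in WT, with median shifts of −0.306 in E545K and 0.856 in H1047R over its 8 shared regions. COL7A1 summed to 19071 in E545K, 13121 in H1047R and 22244 in WT and had no region with exactly 1 peak of each list.

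COL14A1 (chr8:120059780-120373573), which also binds type I fibrils, differed between its ends in H1047R. Its 10 shared regions ran from −27.9 to 48.8 points against WT. The 5 at or upstream of the canonical start all ranked lower in H1047R, with shifts between −27.9 and −6.72 points, and the 5 in the far part of the gene all ranked higher, with shifts between 14.7 and 48.8. This division was drawn after the values were seen. In intron 35 (chr8:120298788-120299242) the area was 227 in E545K, 975 in H1047R and 256 in WT. Upstream of the canonical transcript (chr8:120082383-120082869) it was 758 in E545K, 777 in H1047R and 1532 in WT. In E545K the same 10 regions ran from −18.7 to 7.71 points.

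COL4A3 and COL4A4 ranked higher in H1047R than in WT by medians of 14.3 over 3 regions and 13.6 over 2, of which their common promoter is 1. In COL21A1 5 of 7 shared regions ranked higher in H1047R, by a median of 11.3, while its neighbours had a median of −4.72. In E545K the COL21A1 median was −2.15.

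**Figure D5:**
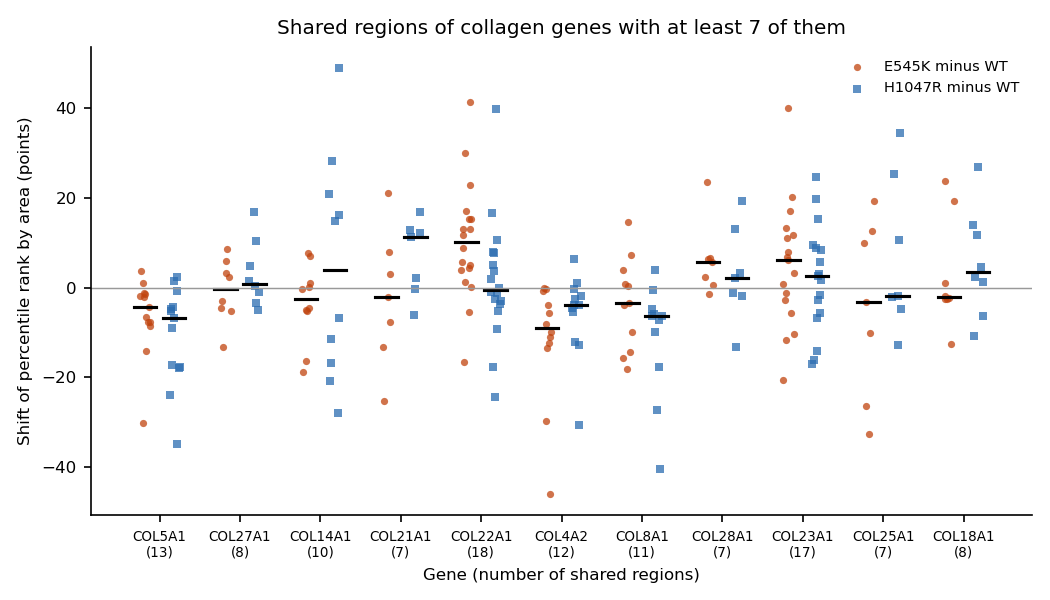
Shift of percentile rank by area, in points, of each shared region, E545K minus WT (orange) and H1047R minus WT (blue), for the 11 collagens with at least 7 shared regions. Black bars are medians and the number of regions stands under each gene. COL4A2 lies at or below 0 in E545K throughout, and COL14A1 splits into regions above and below 0 in H1047R.

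The plot of rank shifts shows that regions within 1 gene spread widely around their median, often by more than 20 points in either direction. In E545K, 12 of 12 points of COL4A2 lay below 0 and 16 of 18 points of COL22A1 above it.

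Within 100 bp of the summit the AP-1 letters stood in 30.4% of collagen peaks in E545K, 38.2% in H1047R and 34.4% in WT, against 32.5% in E545K, 36.9% in H1047R and 34.4% in WT over all peaks. The TEAD letters stood in 20.9% in E545K, 21.1% in H1047R and 23.3% in WT, against 17.4% in E545K, 16.7% in H1047R and 18.1% in WT over all peaks, and in WT the interval of the collagen share, 18.8 to 28.5%, lay above that of all peaks. The CCAAT box stood in 17.1% in E545K, 17.9% in H1047R and 17.0% in WT, against 23.2% in E545K, 23.8% in H1047R and 23.4% in WT over all peaks. Its intervals of 13.0 to 22.1% in E545K, 13.8 to 22.8% in H1047R and 13.1 to 21.8% in WT lay below the shares of all peaks. These are matches of letters in a window and not measured binding.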

How the data were processed

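ATAC-seq was done on 6 samples, 2 per genotype. Per the submitters' processing notes, the authors used Trim Galore 0.4.0, cutadapt, FastQC, SAMtools and Genrich 0.6.1, with the hg38 build. The name of the aligner was not given in the sources used here. Each genotype has 1 deposited narrowPeak list, named in the labels of both of its samples, so replicates cannot be separated. The deposited signal of a peak is an area beneath Genrich's curve. The deposited −log10 p belongs to the summit position. Both are values of the authors. The deposited score column was not used. Read depth is unknown. There were 0 columns without a sample or group.

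Peaks were assigned to the 41 collagens by overlap of at least 1 bp with the GENCODE 44 gene body plus 5 kb on each side, and promoters were the canonical start with 1 kb on each side. Overlapping peaks of the 3 lists were joined into regions. Ranks were taken over regions with exactly 1 peak of each list. No test was possible with 1 list per genotype, and Wilson 95% intervals cover counting error only. The collagens and the gene lists were chosen with earlier results of these data known. Full values were given for collagens open in some lists, for those with a strong peak lacking a partner, for the 5 with the highest coverage or summed area in each list, and for 8 promoters fixed by name; other genes named were chosen after their values were seen. Counts and ranks were computed with pandas 2.3.3 and numpy 2.4.6 in Python 3.11.15, and plots were drawn with matplotlib 3.10.9. Of 9 counts compared with bedtools 2.31.1, 0 differed, and in a simulated list all 2000 of the 2000 deleted peaks were called missing, with 0 of the others. Promoter windows, flanks, the strong limit, the smallest area used, list length and ranking value were varied.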

Additional observations from a re-analysis of the deposited data

How the results depend on the processing

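Of 153 values recomputed for 23 results, 126 stayed within the main interval or within 1.5 times the main value. Leaving out a replicate could not be done, because each list pools both samples. No paired analysis was possible because the pooled lists carry no replicate numbers. Leaving the flanks out gave no separate value for coverage, which is computed over the gene body. With lists cut to equal length, peaks without a partner were 20.2% for E545K against H1047R (14.6% of all peaks), 10.3% for H1047R against E545K (14.8% of all) and 17.1% for WT against E545K (15.3% of all). Counting peaks nearest to a collagen start gave 10.1% for E545K against H1047R (9.14% of all), and a stricter area minimum gave 23.8% for H1047R against E545K, about the share of all peaks. Keeping summits with −log10 p of at least 3, a setting chosen after seeing the data, as was leaving out COL4A1 and COL4A2, gave 5.67% for E545K against H1047R (5.95% of all), 6.19% for E545K against WT (8.88% of all) and 27.0% for WT against E545K (22.5% of all). E545K coverage at least 2 times that of WT then held at 13.5% of collagens, against 2.20% of all genes. Promoters open in some lists were 2.44% with windows of 2 kb and of 500 bp. Ranked by summit, 49.2% of shared regions were higher in E545K than in H1047R (50.1% of all) and 40.9% higher in E545K than in WT (49.0% of all). Strong peaks without a partner were the least stable. With strong taken as the upper 25%, the share was 0% in 6 of 6 comparisons, but over all such peaks it was 0.299 to 0.521% alone. The stricter area minimum gave 0% for E545K against H1047R (1.38% of all) and against WT (2.05% of all). It gave 1.39% for H1047R against WT (2.70% of all) and 1.27% for WT against H1047R (1.29% of all). Strength by summit gave 0% for E545K against WT (1.46% of all). It gave 1.72% for WT against E545K (1.81% of all) and 0.862% for WT against H1047R (0.947% of all). The summit limit gave 0% for E545K against H1047R (1.26% of all) and against WT (2.36% of all). The cause of these shifts was not tested. The unknown depth, the pooled samples and the fusing of nearby peaks limit every comparison of areas and of coverage.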

Other observations

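Strong peaks without a partner also lay at some of the 42 genes that act on collagen. In E545K 4 of 141 lacked one in WT (2.84%, interval 1.11 to 7.07%), against 2.55% of all strong E545K peaks, and 6 of 141 lacked one in H1047R (4.26%, interval 1.96 to 8.97%), against 1.60%. In H1047R 8 of 158 lacked one in WT (5.06%, interval 2.59 to 9.67%), against 2.95%, and 7 of 158 lacked one in E545K (4.43%, interval 2.16 to 8.86%), against 2.87%. In WT 0 of 152 lacked one in E545K, against 2.13%, and 2 of 152 lacked one in H1047R (1.32%), against 1.40%. The interval held the share of the whole list in 5 of these 6 comparisons, and not for E545K against H1047R. In that comparison the 6 peaks came from ITGB1, ADAMTS2 and P4HA2 alone. Peaks in 1 gene are not independent of each other, so these intervals are too narrow. ADAMTS2 also lies within 1 Mb of COL23A1, around which 23.8% of regions were of E545K alone. ITGB1, the beta chain of the collagen-binding integrins, had a peak of area 4583 in H1047R (chr10:32889570-32892903) and one of area 3165 beside it, both without a partner in E545K, and a further peak of area 1528 without one in E545K or WT. ITGB1 also had E545K peaks of area 1252 and 1477 without a partner in H1047R, and a WT peak of area 1161 without one there. ITGA2, an integrin alpha chain that binds collagen, had a peak of area 647 in E545K and 790 in H1047R at a site without a WT peak (chr5:52985250-52985748 in H1047R), and a further H1047R peak of area 776 (chr5:53030730-53031211) without a partner in either other list. ITGA11 had H1047R peaks of area 865 (chr15:68312806-68313255) and 933 (chr15:68354921-68355320) without a partner in E545K, and the first had none in WT either. The lysyl oxidase relative LOXL2 had an H1047R peak of area 966 (chr8:23335800-23336464) without a partner in E545K or WT. MMP2 had an H1047R peak of area 730 without a partner in WT, P4HA2 an E545K peak of area 746 without one in H1047R, and LOXL3 a WT peak of area 796 without one in H1047R. PCOLCE2 and ADAMTS14 are described with their promoters. ADAMTS2, a procollagen N-proteinase, had E545K peaks of area 637, 711 and 791 without a partner in H1047R, each with a summit −log10 p between 2.13 and 2.31. These sites are values of single pooled lists, and their differences were not tested.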
